A study of Mus musculus with 6 samples.

Results

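The Reg family lectins measured here are Reg3b, Reg3g, Reg1 and Reg4, small secreted proteins of the gut and pancreas with a C-type lectin fold. They are the 4 family members with a gene symbol in the authors' annotated table, of 744 genes that the table names by 1 symbol. The table was selected on the difference between genotypes, so the members were chosen by the contrast that is described here, and their differences are given as values with no test. The epithelium of the crypt base of the ileum was cut out by laser from 8-week-old mice of the C57BL/6J background, either Nod2-/- or WT, and 100 ng of total RNA per sample went onto a MoGene 1.0 ST array. There were 3 Nod2-/- and 3 WT arrays. The sources used here do not give how the Nod2 allele was made or whether each array stands for 1 animal, so the spread between arrays may be partly technical, and their number limits the precision. The labels call the captures Paneth cells, for which the crypt base was cut to enrich. Their defining products, lysozyme and the alpha-defensins, were looked for as Lyz1 and Defa24 among genes named by 1 symbol, and neither was found. The label could therefore not be checked against them, and the level of Nod2 itself was not analysed here.

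Reg3b and Reg3g are made by enterocytes and Paneth cells and are released into the lumen. Reg3g kills Gram-positive bacteria by way of the peptidoglycan of their wall, and Reg3b acts mainly against Gram-negative ones. In the mouse gut both depend on bacterial signals through Myd88 and on IL-22, which acts on the epithelium through STAT3. Reg1 was first found as a regeneration gene of pancreatic islets and is abundant in pancreatic juice. Reg4 is found in secretory and enteroendocrine cells of the intestinal epithelium. Nod2, the receptor missing in the Nod2-/- mice, senses the muramyl dipeptide of bacterial walls inside the cell.

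In the headers of the annotated table, both replicate 1 arrays bear the same number and the replicate 2 and 3 arrays share another, and what these numbers mean is not stated. Differences are also given for the replicate 1 arrays alone and for the replicate 2 and 3 arrays alone. Median intensities per array lay between 34.5 and 35.4. In limma, a linear model with a shared estimate of the spread, 0 of 28853 probe sets (0%) passed a Benjamini-Hochberg adjusted p of 0.05. Without adjustment 1106 were under 0.05 in limma. The unpaired test of each probe set on its own, the kind the table's headers name, had 1043 at 0.05 or less and also called 0 after adjustment. WT replicate 1 was the lowest WT array in 57.3% of the table's probe sets that were higher in Nod2-/-.

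All 4 members had a higher mean in Nod2-/-, between 1.94-fold and 3.68-fold, with a median log2 difference of 1.16, against -0.0069 over all probe sets. The rule that fills the table, at least 1.33-fold in either direction or at least 1.25-fold with an unadjusted p of 0.05 or less, fixes that each member differs. Over the whole array, 2.11% of probe sets were at least 1.33-fold higher and 1.23% at least 1.33-fold lower. The smallest difference among the members was that of Reg3g, and the 3 family members outside the table, Reg2, Reg3a and Reg3d, have no named value here. Nod2-/- arrays lay above all WT arrays in 1 of the 4, Reg3g, and this held for 3.42% of all probe sets. Within the replicate 1 arrays and within the replicate 2 and 3 arrays, each Nod2-/- array was above each WT array in 4 of 4 members, and in 6.67% of all probe sets. These counts use the contrast that chose the members and are no support for it.

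**Figure D1:**
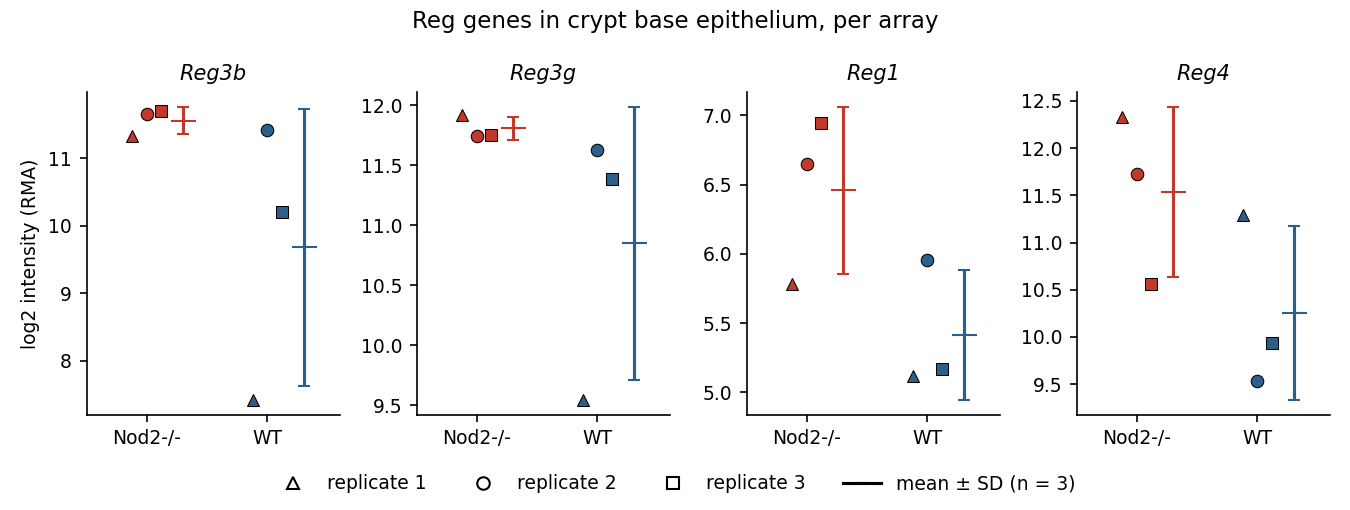
Log2 intensity (vertical axis, scaled separately for each gene) of Reg3b, Reg3g, Reg1 and Reg4 in Nod2-/- and WT arrays. Each point is 1 array, its shape gives the replicate number, and the bar is the mean ± SD of 3 arrays. WT replicate 1 lies far below all other arrays for Reg3b and Reg3g, and the replicate 1 array is the highest of each genotype for Reg4.

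Reg3b, Reg1 and Reg3g belong to a family cluster on mouse chromosome 6. Their probe sets span 97990 bases (mm9), with Reg3b from 78320879 to 78323460 and Reg1 from 78375977 to 78378660 on the plus strand, and Reg3g from 78416262 to 78418868 on the minus strand. In the RefSeq order of GRCm38.p6, Reg3d, Reg3a and Reg2 lie between Reg3b and Reg1, so the cluster holds 6 family genes. The annotated table holds 3 probe sets within 1 Mb of this cluster, those of the 3 members. Reg4 lies apart, on chromosome 3 from 98026076 to 98040765 (mm9, plus strand). Within 1 Mb of Reg4 the table also holds Gm4671, 1.35-fold higher, and Notch2, a receptor of cell fate decisions, 1.33-fold lower in Nod2-/-.

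The sequences before the start of the 4 genes are shown because Reg3b and Reg3g were both lowest in WT replicate 1, where Reg4 was the highest of the WT arrays. They run from 180 bases before the RefSeq start of the gene to base 9 of the transcript (GRCm38.p6), at chr6:78370705-78370893 (plus strand) for Reg3b, chr6:78468866-78469054 (minus strand) for Reg3g, chr6:78425803-78425991 (plus strand) for Reg1 and chr3:98221976-98222164 (plus strand) for Reg4. Capitals mark every match to one of 4 motifs, searched on both strands, which are TTCNNNGAA for STAT factors, TGANTCA for AP-1, TTTATG for CDX factors and TATAAA for the TATA box.
Reg3b: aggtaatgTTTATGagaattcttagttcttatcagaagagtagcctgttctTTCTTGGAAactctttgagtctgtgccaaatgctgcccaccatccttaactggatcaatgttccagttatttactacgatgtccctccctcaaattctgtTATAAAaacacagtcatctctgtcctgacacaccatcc
Reg3g: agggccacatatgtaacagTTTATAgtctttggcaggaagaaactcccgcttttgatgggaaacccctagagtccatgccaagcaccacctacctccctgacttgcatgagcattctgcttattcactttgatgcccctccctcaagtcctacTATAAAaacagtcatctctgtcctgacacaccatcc
Reg1: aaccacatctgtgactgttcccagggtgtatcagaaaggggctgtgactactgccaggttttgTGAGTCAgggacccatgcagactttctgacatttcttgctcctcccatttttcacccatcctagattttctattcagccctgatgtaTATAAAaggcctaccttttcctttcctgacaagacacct
Reg4: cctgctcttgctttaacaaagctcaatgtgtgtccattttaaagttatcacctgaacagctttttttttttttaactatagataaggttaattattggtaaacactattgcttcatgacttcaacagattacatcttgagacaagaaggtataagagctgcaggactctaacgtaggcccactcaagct

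A TATA box in the forward direction began at base -29 in Reg3b, at base -27 in Reg3g and at base -30 in Reg1, counted back from the start. Of windows of 300 bases for 32851 RefSeq starts, 13.6% held TATAAA on either strand. The STAT motif was in the window of Reg3b, as TTCTTGGAA from base -129 to base -121, and in 8.3% of all windows. The CDX motif was in that of Reg3b, from base -172 to base -167 (11.9% of all windows). The AP-1 motif was in that of Reg1, from base -117 to base -111 (7.81% of all windows). No match lay on top of another in these 4 genes, and none of the 4 motifs matched in the window of Reg4. A match describes letters, and no match says only that these letters are not in the window.

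Reg3b and Reg3g shared an unbroken run of 29 bases that begins at base -20 in both genes, just after the TATA box.
Shared run of Reg3b and Reg3g: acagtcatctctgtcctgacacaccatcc
Among the other pairs of the 7 family genes the longest shared run had between 6 and 14 bases. Over the whole aligned window the identity of Reg3b and Reg3g was 71.4%, inside the range of the other pairs (60.2% to 73.9%).

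Reg3b, the lectin that acts mainly on Gram-negative bacteria, had intensities of 2565, 3239.8 and 3319.7 in Nod2-/- replicates 1, 2 and 3, against 171, 2748 and 1177 in WT replicates 1, 2 and 3. The genotypes overlapped, since WT replicate 2 was above Nod2-/- replicate 1, and WT replicate 1 stood far below the other 5 arrays. Mean log2 intensity was 11.56 ± 0.21 in Nod2-/- and 9.68 ± 2.05 in WT (SD, n = 3 each), a difference of 1.88 with a standard error of 1.00 in limma. The fold of 3.68 became 1.68 without WT replicate 1 and 6.73 without WT replicate 2. It was 15.0 between the replicate 1 arrays and 1.82 between the replicate 2 and 3 arrays. From means of linear intensities it was 2.23.

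Reg3g, the lectin that acts on Gram-positive bacteria, had intensities of 3878, 3433 and 3455 in Nod2-/- replicates 1, 2 and 3, against 746, 3155 and 2672 in WT replicates 1, 2 and 3. The genotypes did not overlap, but WT replicates 2 and 3 came close to the Nod2-/- arrays, and only WT replicate 1 was far below. Mean log2 intensity was 11.81 ± 0.10 in Nod2-/- and 10.85 ± 1.14 in WT (SD, n = 3 each), a difference of 0.96 with a standard error of 0.55 in limma. Without WT replicate 1 the fold was 1.23. It was 5.20 between the replicate 1 arrays and 1.19 between the replicate 2 and 3 arrays. From group medians the fold was 1.29, against 1.94 from means.

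Reg1, the pancreatic and islet-derived member, had intensities of 55.1, 100.1 and 123 in Nod2-/- replicates 1, 2 and 3, against 34.7, 62.2 and 36.0 in WT replicates 1, 2 and 3. The genotypes overlapped, since WT replicate 2 was above Nod2-/- replicate 1. WT replicates 1 and 3 lay near the median intensity of an array, and the files give no measure of signal over background, so these low levels may have no order. Mean log2 intensity was 6.46 ± 0.60 in Nod2-/- and 5.42 ± 0.47 in WT (SD, n = 3 each), a difference of 1.04 with a standard error of 0.37 in limma. The fold was 2.06, and with any 1 array left out it lay between 1.74 and 2.60. It was 1.59 between the replicate 1 arrays and 2.35 between the replicate 2 and 3 arrays.

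Reg4, the member of secretory and enteroendocrine cells, had intensities of 5159, 3382 and 1509 in Nod2-/- replicates 1, 2 and 3, against 2506, 739 and 979.6 in WT replicates 1, 2 and 3. The genotypes overlapped, since WT replicate 1 was above Nod2-/- replicate 3, and the replicate 1 array was the highest in each genotype. Mean log2 intensity was 11.54 ± 0.90 in Nod2-/- and 10.25 ± 0.92 in WT (SD, n = 3 each), a difference of 1.29 with a standard error of 0.62 in limma. The fold was 2.44, and with any 1 array left out it lay between 1.85 and 3.50. It was 2.06 between the replicate 1 arrays and 2.65 between the replicate 2 and 3 arrays.

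**Figure D2:**
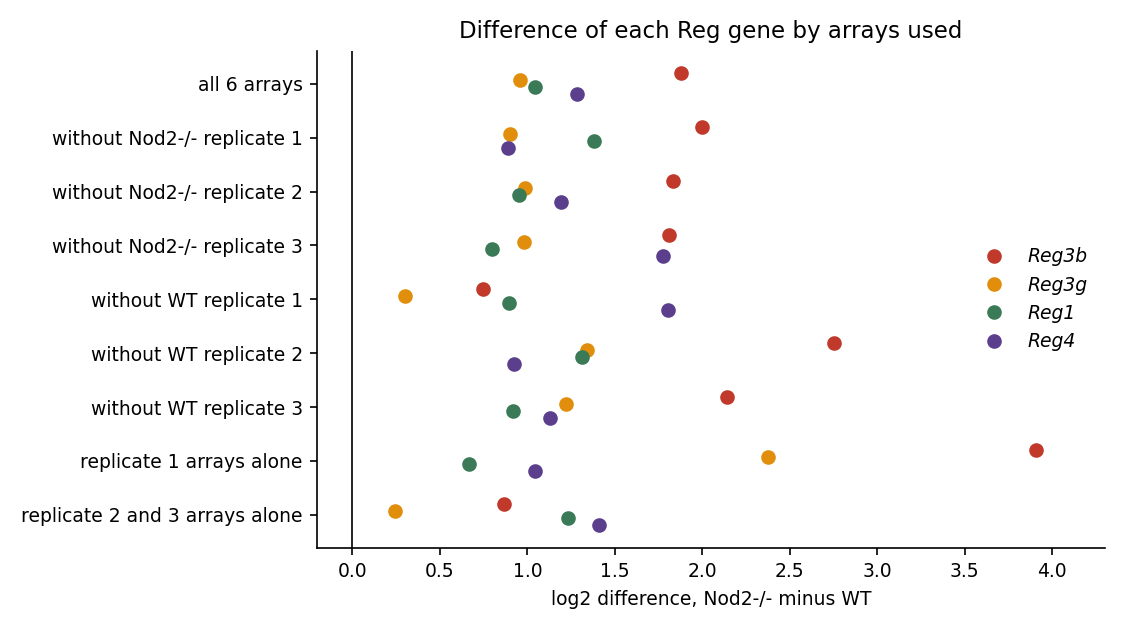
Log2 difference of each Reg gene, Nod2-/- minus WT (horizontal axis), with all 6 arrays, with each array left out, and within the replicate 1 arrays or the replicate 2 and 3 arrays alone (rows). All points lie above 0, Reg3b ranges from 0.75 to 3.91 and Reg3g from 0.25 to 2.38, while Reg1 and Reg4 stay between 0.67 and 1.81.

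In the Reg3 genes the 3 WT arrays differed more among themselves than the 3 Nod2-/- arrays did, and most of this came with WT replicate 1. The SD of log2 intensity of Reg3b was 0.21 in Nod2-/- and 2.05 in WT, and that of Reg3g was 0.10 in Nod2-/- and 1.14 in WT. Without WT replicate 1 the SD of the other 2 WT arrays was 0.86 for Reg3b and 0.17 for Reg3g. Over all probe sets the median SD was 0.10 in each genotype. The Nod2-/- SD was not unusually low, as 24.2% of probe sets had one at least as high as Reg3b and 50.8% one at least as high as Reg3g. A WT SD at least as high as that of Reg3b was found in 0.0208% of probe sets, the gene itself included, and for Reg3g in 0.27%. Among the 2886 probe sets with the highest mean intensity, which hold both genes, these shares were 0.104% for Reg3b and 0.693% for Reg3g. A ratio of WT to Nod2-/- SD at least as high was found in 1.33% of probe sets for Reg3b and 1.05% for Reg3g. The Nod2-/- intensities ran over 1.29-fold for Reg3b and 1.13-fold for Reg3g, the WT intensities over 16.1-fold and 4.23-fold. Reg1 and Reg4 varied about equally in both genotypes, with SDs of 0.60 in Nod2-/- and 0.47 in WT for Reg1, and of 0.90 in Nod2-/- and 0.92 in WT for Reg4. For Reg4 an SD as high was found in 0.527% of probe sets in each genotype, and among these 2886 bright probe sets in 0.832% in Nod2-/- and 1.11% in WT. The WT SD of Reg4 was 0.29 without WT replicate 1. The difference in spread between genotypes was not tested.

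**Figure D3:**
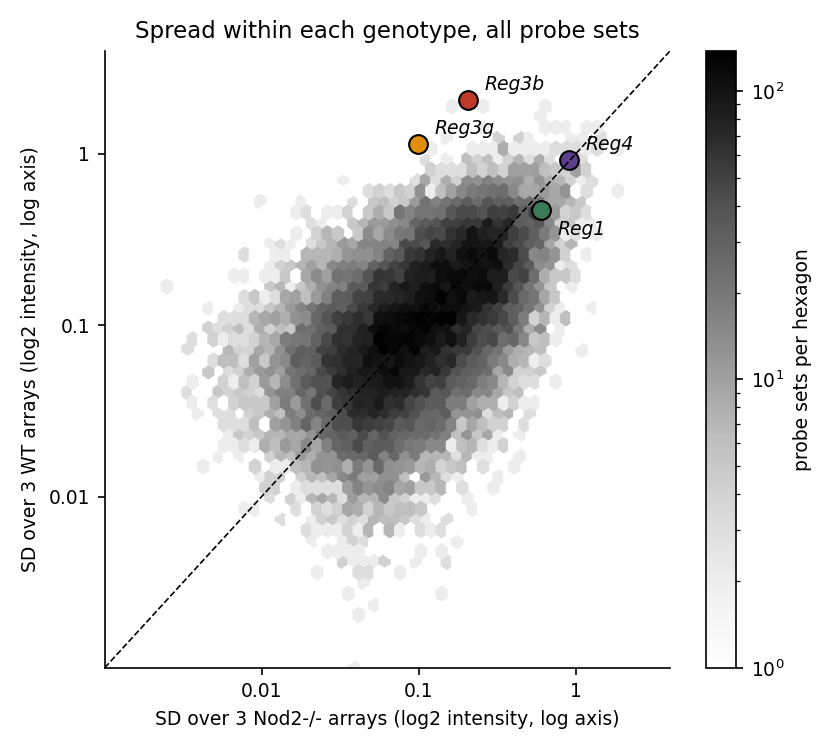
SD of log2 intensity over the 3 Nod2-/- arrays (horizontal, log axis) and over the 3 WT arrays (vertical, log axis) for 28853 probe sets, shaded by number per hexagon, with the 4 Reg genes as coloured points and the line of equal SD dashed. Reg3b and Reg3g lie far above the line, with WT SDs of 2.05 and 1.14, and Reg1 and Reg4 lie near it.

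How the members varied together was described on deviations of each array from the mean of its genotype, which leave out the contrast that chose them. Over the 6 arrays, Pearson's r of these deviations was 0.96 between Reg3b and Reg3g, and 0.53 without WT replicate 1. Of all other probe sets, 0.399% followed Reg3b at least as closely as Reg3g did. Reg4 went against the others, with r of -0.81 with Reg1, -0.77 with Reg3b and -0.66 with Reg3g, and of -0.86, -0.46 and 0.29 without WT replicate 1. Reg1 and Reg3b had r of 0.55 (0.78 without WT replicate 1), and Reg1 and Reg3g of 0.32 (-0.09 without it). With 6 arrays and 2 means taken out, each r has few degrees of freedom, and all genes share the RNA and the array of a sample. Between replicates 2 and 3, Reg3b, Reg3g and Reg1 had the same order, higher in replicate 3 in Nod2-/- and higher in replicate 2 in WT, and Reg4 had the opposite order in both genotypes. In Nod2-/- these arrays were close for Reg3g (intensities of 3433 and 3455) and Reg3b (3239.8 and 3319.7), so that order carries little weight. The high r of Reg3b with Reg3g rests on WT replicate 1, and without that array Reg3b had a higher r with Reg1 than with Reg3g. The inverse relation of Reg1 and Reg4 kept its size without it, but Nod2-/- replicate 1, with the same header number, remained in. That array deviated by -0.68 for Reg1 and by 0.79 for Reg4. Deviations from genotype means do not take out a difference between header numbers, which limits every r here and below. Reg1 lay near the median intensity of an array in WT replicates 1 and 3, which limits every r of Reg1 here and below.

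**Figure D4:**
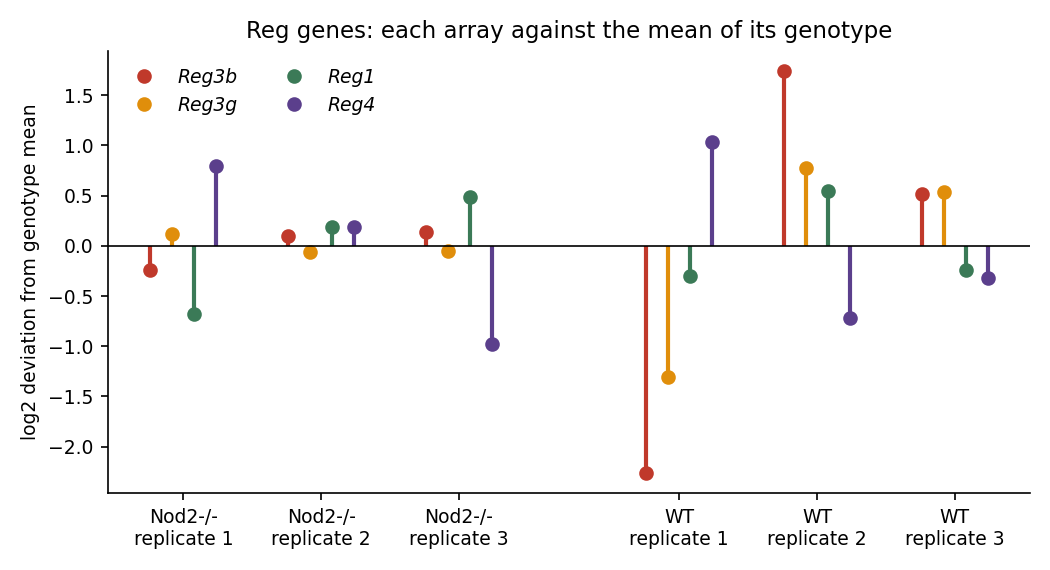
Log2 deviation of each array from the mean of its genotype (vertical axis) for the 4 Reg genes, 3 Nod2-/- arrays at the left and 3 WT arrays at the right. WT replicate 1 lies below the WT mean for Reg3b, Reg3g and Reg1 and above it for Reg4, and Nod2-/- replicate 1 is below its mean for Reg1 and above it for Reg4.

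Among the named genes, those with the most similar log2 values over the 6 arrays were Gm11545, Lrrc1 and Cfi for Reg3b (r between 0.977 and 0.986). Cfi, complement factor I, averaged 7.31 ± 0.08 in Nod2-/- and 6.48 ± 0.63 in WT, and on deviations it was the closest to Reg3b (r = 0.987, with 0.0659% of probe sets as high), followed by Usp31, a deubiquitinase that was lower in Nod2-/-, and Lrrc1. For Reg3g they were Kcnk6, a potassium channel, Elovl6, a fatty acid elongase, and Sidt1 (r between 0.975 and 0.978). On deviations the closest to Reg3g was H2-Aa, a chain of MHC class II (r = 0.994), at 8.63 ± 0.15 in Nod2-/- and 8.13 ± 1.49 in WT, and next came Akip1 and Atox1, a copper chaperone. For Reg1 they were Cebpd, a transcription factor of the acute phase, Cdk1, a kinase of the cell cycle, and Fam3b, a secreted protein of pancreatic islets (r between 0.980 and 0.986). Fam3b averaged 5.99 ± 0.63 in Nod2-/- and 4.96 ± 0.29 in WT. On deviations the closest to Reg1 were Cdk1 (r = 0.988), the adaptor Shc1 and Cebpd. For Reg4 they were Pnliprp2 and Pnliprp1, which encode pancreatic lipase-related proteins, and Alox5ap, which activates 5-lipoxygenase (r between 0.973 and 0.978). Named genes are few and were selected on the difference, so these likenesses describe the table and the 6 arrays only. They were not recomputed without WT replicate 1, on which the high r of Reg3b with Reg3g rests.

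Pnliprp1 and Pnliprp2 had the same order of arrays as Reg4 in both genotypes, with replicate 1 the highest. Its log2 intensities were 7.09, 6.78 and 5.47 in Nod2-/- replicates 1, 2 and 3, against 5.74, 4.72 and 4.91 in WT replicates 1, 2 and 3. Pnliprp2 had 12.67, 12.38 and 11.67 in Nod2-/- and 12.08, 10.83 and 11.50 in WT, in the same order of replicates. On deviations, Pnliprp1 and Pnliprp2 followed Reg4 with r of 0.965 and 0.963, the highest of the named genes, followed by Psma5, a proteasome subunit that was lower in Nod2-/-. Of 11 fixed Paneth cell markers 3 are named by 1 symbol in the table. These are Pnliprp2, Clps (the cofactor of pancreatic lipase) and Kit (a receptor kinase). Their mean log2 intensity had r of 0.95 with Reg4 on deviations, also without WT replicate 1. With Reg1 it had r of -0.93, and of -0.95 without that array. The summed intensity of these 3 markers lay between 6968 and 12698 in Nod2-/- and between 4624 and 8738 in WT. The replicate 1 arrays, highest for these genes in both genotypes, bear their own header number. Deviations from genotype means keep any difference that goes with that number, and it cannot be told apart from cell content here. In captured tissue, more cells of a type and more RNA per cell cannot be told apart, and the part of Paneth cell content in the Reg4 values was not tested.

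Among genes of the IL-22 and STAT3 arm, a list chosen with earlier results known, 7 of 28 are named by 1 symbol in the annotated table. All 7 had a higher mean in Nod2-/-. For comparison, 60.1% of the 744 named genes were higher. The median log2 difference of the 7 was 0.69, against 0.43 over the 744, and limma called 0 of them. Receptors and kinases of the arm (Il22ra1, Il10rb, Jak1, Tyk2, Stat3) are not named by 1 symbol in the table. The 7 are Socs3, Bcl3, Tifa and products of the epithelium. Other genes of the list are not named there by 1 symbol either, among them Saa1, Saa2, Saa3, Lcn2, S100a8, S100a9, Pigr, Nos2 and Steap4. Fut2, which adds fucose to surface glycans, averaged 6.82 ± 0.18 in Nod2-/- and 5.75 ± 0.31 in WT (2.10-fold). Tifa, an adaptor of NF-kB signalling, averaged 8.39 ± 0.23 in Nod2-/- and 7.66 ± 0.39 in WT (1.66-fold). In these 2 genes all Nod2-/- arrays lay above all WT arrays, a count of 2 of 7 beside 3.42% of all probe sets and 29.4% of the 744 named genes. The count became 6 without Nod2-/- replicate 1, beside 9.68% of all probe sets and 37.4% of the named genes, and 5 without WT replicate 2, beside 7.36% and 40.1%.

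Socs3, the feedback inhibitor that STAT3 induces, had log2 intensities of 5.52, 6.76 and 7.65 in Nod2-/- replicates 1, 2 and 3, against 5.26, 5.84 and 6.40 in WT replicates 1, 2 and 3 (1.75-fold). Lrg1, a secreted glycoprotein of the acute phase, had 5.32, 6.25 and 7.18 in Nod2-/- and 5.44, 5.67 and 5.96 in WT, in the same order (1.48-fold). In both genes Nod2-/- replicate 1 was below at least 2 WT arrays, and the genotypes overlapped. Duox2, which makes hydrogen peroxide at the cell surface, was 1.61-fold higher, its partner Duoxa2 1.39-fold, and Bcl3, a regulator of NF-kB, 1.44-fold. WT replicate 1 was the lowest WT array in all 7, as it was for Reg3b, Reg3g and Reg1. The same held for 57.3% of the table's probe sets that were higher in Nod2-/-, and for 35.8% of all probe sets. On deviations the mean of the 7 genes had r of 0.89 with Reg1 and -0.92 with Reg4, and of 0.92 and -0.87 without WT replicate 1. With Reg3b it had 0.71 and with Reg3g 0.56, and 0.49 and -0.46 without that array. The median difference of the 7 was 0.44 without WT replicate 1 and 0.86 without Nod2-/- replicate 1, and all 7 were higher with any 1 array left out.

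**Figure D5:**
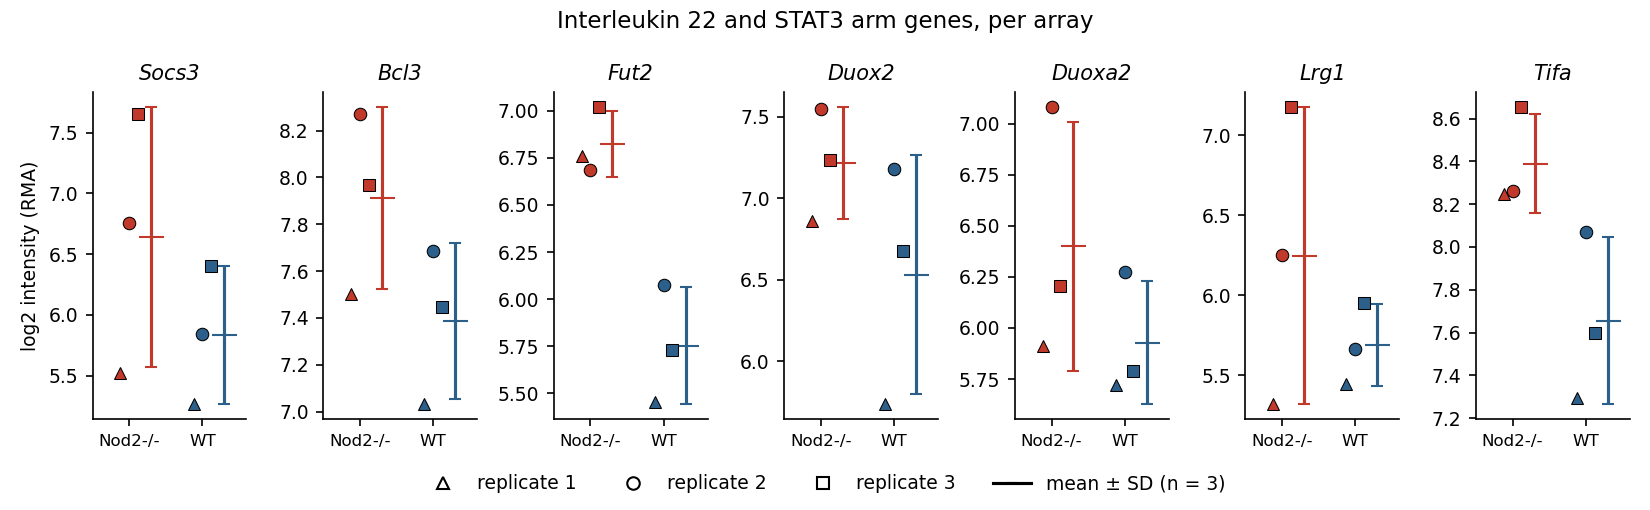
Log2 intensity (vertical axis, scaled separately for each gene) of the 7 IL-22 and STAT3 arm genes in the annotated table, Nod2-/- at the left and WT at the right of each panel. Points are arrays, shapes give replicate numbers and bars are mean ± SD of 3 arrays. WT replicate 1 is the lowest WT array in each panel, and the genotypes separate in Fut2 and Tifa.

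None of 24 genes of Toll and NOD signalling is named by 1 symbol in the table, Myd88, Ripk2 and Nfkbia among them. A gene not found this way was under the table's thresholds, not measured under its symbol, or in a row with several symbols or none. Of 19 other lectins and antibacterial products 4 are named there by 1 symbol. Retnlb, Defb1 and Mptx1 were higher in Nod2-/- with no overlap of arrays. This is 3 of 4, beside 3.42% of all probe sets and 29.4% of the 744 named genes, which were selected on the difference. Zg16, a lectin of goblet cells that binds Gram-positive bacteria, averaged 4.86 ± 0.12 in Nod2-/- and 6.82 ± 1.67 in WT. The Zg16 intensities of WT replicates 1 and 2 were high and that of WT replicate 3 was among those of Nod2-/-, so this lectin did not share the array pattern of Reg3b and Reg3g.

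Markers of several other cell types also set WT replicate 1 apart. As a background for their counts, which take only genes named by 1 symbol, the table holds 3.65% of all probe sets. Of its named genes, 60.1% were higher in Nod2-/-. Of 7 leukocyte markers 2 are in the table, Cd74 (the invariant chain of MHC class II) and Cd52. Their summed intensity lay between 755 and 1544 in Nod2-/- and was 221, 1318 and 1226 in WT replicates 1, 2 and 3. Their mean had r of 0.96 with Reg3g and 0.87 with Reg3b on deviations, which became -0.07 and -0.77 without WT replicate 1. Of 7 fibroblast markers the table holds 6, each of them higher in Nod2-/-. Their summed intensity lay between 1986 and 2838 in Nod2-/- and between 1052 and 1826 in WT, where replicate 1 was the lowest. Their mean had r of 0.84 with Reg3b and 0.78 with Reg3g, and of 0.32 and -0.41 without WT replicate 1. Of 15 enterocyte markers 5 are in the table, 4 of them lower, with a summed intensity between 721 and 1065 in Nod2-/- and between 1053 and 1708 in WT, where replicate 1 was the highest. Their mean had r of -0.88 with Reg3b and -0.89 with Reg3g, and of 0.03 and 0.49 without WT replicate 1. Of 11 pancreatic acinar markers 2 are in it, Pnliprp1 and Zg16, of which Pnliprp1 was 2.50-fold higher and Zg16, also on the goblet cell list, was lower. Their summed intensity lay between 76.6 and 164 in Nod2-/- and between 60.4 and 313 in WT. Pnliprp2 and Clps, counted above as Paneth cell markers and also known from the pancreas, were 1.70-fold and 1.37-fold higher.

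Markers of other secretory cells and of stem cells were counted as well, since Reg4 is found in secretory and enteroendocrine cells. Of 12 enteroendocrine markers the table holds 5, of which 4 were higher. Their summed intensity lay between 582 and 1540 in Nod2-/- and between 444 and 1011 in WT. Their mean had r of -0.08 with Reg4 on deviations, and 0.58 without WT replicate 1. All 9 tuft cell markers are in the table, and all 9 had a higher mean in Nod2-/-, with a summed intensity between 464 and 971 in Nod2-/- and between 381 and 413 in WT. The lists were chosen with earlier results of these data known, so this count is no support for a difference. In 4 of the 9 all Nod2-/- arrays lay above all WT arrays, beside 29.4% of the 744 named genes. The mean of the 9 markers had r of 0.57 with Reg4, and 0.96 without WT replicate 1. Of 10 goblet cell markers the table holds 6, of which 4 were higher. Their summed intensity lay between 4006 and 5516 in Nod2-/- and between 2276 and 4385 in WT. Their mean had r of 0.07 with Reg4, and 0.095 without WT replicate 1. Of 8 stem cell markers 5 are in it, 4 of them lower, with a summed intensity between 756 and 1324 in Nod2-/- and between 1092 and 1545 in WT. Their mean had r of 0.49 with Reg4, and 0.31 without WT replicate 1. Zg16, Retnlb and Alox5ap each appear in more than 1 of the lists or likenesses given here. The other markers of these lists are unnamed here, and no intensity in the files is 0. The part of these cells in the Reg values was not tested.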

How the data were processed

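The value table holds one intensity per probe set and array, which the authors made by RMA (per the submitters' processing notes, with software and settings not stated). These deposited intensities are linear, and log2 was taken. An annotated table of 1053 of the 28853 probe sets gives symbols and mm9 positions (MoGene 1.0 ST, annotation release 31, per the file headers). Its intensity columns equalled the value table in all 1053 (relative tolerance 0.001), and 12 further columns of values per array were not used. Symbols were updated by Entrez number through RefSeq (GRCm38.p6), and the probe set with the highest mean stands for a gene. Only the 855 probe sets with 1 symbol were matched to the fixed lists. A list gene counted as in the table is one found among these.

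Groups came from the titles. limma 3.58.1 in R 4.3.3 (lmFit, eBayes, Benjamini-Hochberg) was fitted to log2 values of the whole array, with genotype alone in the model, and was tested on simulated data. It supplied standard errors and the counts of calls over the array and the lists, and no p is given for a member. Correlations are descriptions over 6 arrays. Promoter windows (250 bases before to 50 after the start) are RefSeq's, aligned with Biopython 1.88, and all 4 members matched. Genes named are the members, the fixed lists and, per member, the 3 named genes with the highest r. Members, lists and rules were chosen with earlier results of these data known. Protein sequences were not used here.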

Additional observations from a re-analysis of the deposited data

How the results depend on the processing

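All 4 members stayed higher in Nod2-/- with each array left out, within the replicate 1 arrays and within the replicate 2 and 3 arrays. They also did so from group medians, from linear means and after centring arrays on their medians. With 1 array left out, the log2 difference ranged from 0.75 to 2.75 for Reg3b, 0.30 to 1.34 for Reg3g, 0.80 to 1.38 for Reg1 and 0.89 to 1.81 for Reg4, and the median from 0.82 to 1.38. Between the replicate 1 arrays alone, it was 3.91 for Reg3b and 2.38 for Reg3g, and the median 1.71. The number of members whose arrays did not overlap was 1 with all arrays and between 1 and 3 with 1 array left out (3 without Nod2-/- replicate 1 or WT replicate 2, 2 without Nod2-/- replicate 3 or WT replicate 1), beside 6.82% to 9.68% of all probe sets with 1 array left out. The mean pairwise r of the members' deviations was -0.07 and ranged from -0.15 without WT replicate 2 to 0.0318 without WT replicate 1, so its sign rests on 1 array. Over the array, limma called 0 probe sets, 3 with dim probe sets left out, 3 with a trended and robust prior and between 0 and 2 with 1 array left out (2 without Nod2-/- replicate 1). The cause of these changes was not tested. The shares without overlap with 1 array left out and the WT spread without WT replicate 1 were added after seeing the data. A block by replicate number, or by replicate 1 against replicates 2 and 3, cannot change the differences (1.88 for Reg3b). Each such block holds both genotypes in equal number. The count stayed at 0 with the replicate block. Arrays of the same replicate number had correlations of deviations of 0.20, -0.02 and 0.06, so replicate numbers were not taken as pairs. Between genotypes, replicate 1 had -0.12, -0.11, -0.04 and -0.20 with replicates 2 and 3. Replicates 2 and 3 had 0.07 and 0.16 with each other across genotypes. All pairs with unlike header numbers were therefore negative, and an effect of that number was not tested. Deviations within a genotype offset each other, so these values are not independent. Signal over background was not analysed, which limits Reg1.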
